A study of Saccharomyces cerevisiae with 96 samples.

Results

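Populations of Saccharomyces cerevisiae that had been propagated on xylulose were compared with their wild type ancestors while both grew on glucose, the sugar on which they had not been selected. All columns of the deposited expression table that carried the glucose label were used, 12 evolved and 12 wild type, which are 24 of its 48 columns. The wild type strains, numbered 1 to 12, were YPS1009, T73, T7, Y12, YJM269, PW5, CLIB215, CLIB324, CBS7960, EC1118, BY4743 and SK1. Each evolved column carried the number of a strain and stood for a whole population, not a clone, after about 300 generations of serial dilution in xylulose medium. Wild type and evolved cells were grown in YPD, a rich medium with glucose, and harvested in log phase. The methods describe each value as an average over 2 repetitions, which goes against the values of some columns, as given below. The replicates here are strains and populations, and the spread between repetitions is unknown. Values are reads per 1000000 (RPM). Those below 10 RPM were blank in the table and were set to this floor, so differences that involve a blank are compressed.

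Yeast takes up inorganic phosphate through membrane transporters and frees it from organic compounds with secreted acid phosphatases. When phosphate runs short, the inhibitor Pho81 blocks the cyclin and kinase pair Pho80 and Pho85, and the transcription factor Pho4 then enters the nucleus and activates the PHO genes together with Pho2. Mating type is set by the MAT locus: a cells express a-factor and the receptor for alpha-factor, alpha cells the converse, and diploid a/alpha cells repress both sets as well as the haploid-specific genes. These groups held most of the largest differences, and stretches of their promoters are shown first because they carry the motifs that the factors named here are known to bind.

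Pho4 binds CACGTG and, more weakly, CACGTT. On either strand of the 500 bases before the start codon, CACGTG was found for 374 of the 6002 R64 protein-coding genes (6.23%) and CACGTT for 961 (16%). Among the 26 genes listed as phosphate starvation (Pho4) genes, 18 held CACGTG (69.2%) and 14 held CACGTT (53.8%). The list was written around Pho4, so a high share of its motifs was to some extent built in and is no separate finding. All 13 members that were called higher below held either, as did 8 of the 12 that were tested and not called. Either motif was found for 1260 of the 6002 genes (21%). The following stretches, given in the direction of the gene with the motif in capitals, come from the reference genome and not from the 12 strains.
PHO84, chrXIII:26197-26248, minus strand: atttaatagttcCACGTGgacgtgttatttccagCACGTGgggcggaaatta
PHO5, chrII:431187-431216, minus strand: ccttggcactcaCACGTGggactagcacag
PHO12, chrVIII:551804-551833, plus strand: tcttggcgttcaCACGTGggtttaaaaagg
PHM6, chrIV:1022583-1022612, minus strand: gagcttcgctgaCACGTGggaggtgggata
SPL2, chrVIII:375230-375259, minus strand: aaatgatgtacgCACGTGggcgaaagttca
VTC3, chrXVI:517279-517375, minus strand: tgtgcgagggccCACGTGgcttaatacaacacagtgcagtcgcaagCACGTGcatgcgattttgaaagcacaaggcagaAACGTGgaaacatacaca

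The PHO12 stretch is letter for letter that of its near-identical copy PHO11 on chromosome I. In VTC3 the last capitals are CACGTT read on the other strand. For the a genes the operator bound by alpha2 and Mcm1 was searched as CATGT and ACATG on either side of 21 bases, with at most 1 mismatch in the 10 fixed bases. It was found for 92 of the 6002 genes (1.53%) and for 3 of the 8 genes of the a list. The 3 are MFA2, STE2 and, with a mismatch, STE6, shown with the fixed bases in capitals. AFB1, a gene of alpha cells, stood in this list and had no match. A match describes the letters only. Operators of another spacing or with more mismatches were not searched, so a gene without a match may still hold one.
MFA2, chrXIV:352160-352196, plus strand: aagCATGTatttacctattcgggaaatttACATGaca
STE2, chrVI:82348-82384, plus strand: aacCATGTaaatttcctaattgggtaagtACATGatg
STE6, chrXI:46474-46510, minus strand: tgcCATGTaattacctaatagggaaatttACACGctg

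Several columns stood apart or went against their labels. In 11 of the 24 columns small values were whole multiples of the worth of 1 read (tolerance 0.004 RPM), which implied 253336 to 1114087 counted reads (median 680944), so that 10 RPM is about 6.81 reads. At least 96.9% of the low values in each of these 11 columns, 7 wild type and 4 evolved, lay on that 1 step, as the reads of 1 library or pooled reads would and a mean of 2 separately scaled libraries would not. How many libraries these columns rest on is therefore unknown, as is the depth of the other 13. Evolved columns held a value for 4584 to 5342 genes and wild type columns for 3935 to 5021. The values summed to 995287 to 1005807 RPM in wild type and to 888352 to 996766 in evolved columns, lowest in evolved 8. In 59 genes whose levels were typical of a strain on both sugars, evolved columns 2, 3 and 4 were assigned to their own wild type number, while 7 of the 8 evolved columns numbered 5 to 12 were assigned to the number 4 above or below, as if 5 to 8 and 9 to 12 had been exchanged. Their mean r was -0.03 with the same number and 0.53 with the assigned number. Evolved 1 was assigned to wild type 6 (r 0.38, against 0.13 with its own number) and evolved 10 to wild type 1. On xylulose evolved columns 1 to 4 were assigned to their own number. There, every one of 5 to 12 was assigned to the number 4 above or below, and r with the assigned number was 0.42 to 0.95 over all evolved columns. LEU2, a leucine synthesis gene deleted in BY4743, was blank in wild type 11 and in evolved 7, a pair under that exchange. HIS3, which is partly deleted in the same strain, had a value in all 24 columns. The comparison between groups was therefore unpaired, and a fit with the numbers exchanged is given where it changed a call.

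Of 5146 genes tested with limma, 126 had a Benjamini-Hochberg adjusted p under 0.05 (2.45%). They were 121 that were higher in the evolved columns (2.35%) and 5 that were lower (0.0972%). The log2 difference was above 0 for 3505 of the 5146. Its median over all genes was 0.17, or 0.11 with median-of-ratios scaling, which left 93 higher and 5 lower. Of the 121 genes, 107 differed by over 1 on the log2 scale and 28 by over 2. Low levels in wild type were common among them, and 53 had a value in 6 or fewer of the wild type columns. When the fit was restricted to the 2593 genes detected in all 24 columns, it called 16 higher and 3 lower. The part that the larger number of detected genes in the evolved columns has in this imbalance was not tested. Evolved 12 stood out among its group: it exceeded the highest wild type column in 13 of the 121 genes, against 42 to 97 in the other 11 evolved columns. In bulk populations, more cells with a transcript and more transcript per cell cannot be told apart.

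Phosphate starvation genes held the largest single rise and the most calls of any list. Of the 26 listed, 25 were tested and 13 were called higher, against 2.35% of all genes, with none lower. The median log2 difference of those tested was 1.27 against 0.17 for all genes. Members low in wild type, such as PHO89, could reach the filter, a mean of 10 RPM over the 24 columns, through the evolved columns. The count and median therefore only describe those that passed. Among genes with a value in every column 3 of 11 members were called and their median was 0.37. CTF19, a kinetochore gene that shares its upstream region with VTC3, was blank in all 24 columns. The list's summed level was 1169 to 2001 RPM in wild type columns (median 1315) and 1842 to 17280 in evolved ones (median 6137). Evolved 12 had the lowest sum and lay within the wild type range, and all other evolved columns lay above that range.

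The high-affinity phosphate transporter PHO84 (YML123C, chromosome XIII of R64, 24037 to 25800) ranged from a blank to 57.9 RPM in wild type columns, with a median of 17.5, and from 71.9 to 1674 in evolved columns, with a median of 492. It was the only gene of the 5146 (0.0194%) for which no evolved column overlapped the wild type range, with evolved 7 lowest and evolved 8 highest. The log2 difference was 4.41 (standard error 0.40, limma adjusted p = 2.83e-09). PHO89 (YBR296C), the sodium-coupled phosphate transporter, was blank in 10 wild type columns and reached at most 17.4 RPM, while its median was 292 RPM in evolved columns. It was blank in evolved 12 and above the wild type range in the other 11, with a log2 difference of 4.26 (adjusted p = 1.42e-08).

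Among the secreted acid phosphatases, PHO5 (YBR093C, chromosome II, 429548 to 430951) had at most 89.4 RPM in wild type columns and a median of 29.98. In evolved columns it ranged from 69.0 to 4788 RPM, with a median of 256. Evolved 6, 10 and 11 held 3870, 4788 and 4348 RPM and the other 9 columns at most 522, 10 of the 12 being above the wild type range. The log2 difference was 3.83 (standard error 0.55, adjusted p = 1.85e-05). PHO12 (YHR215W, chromosome VIII, 552099 to 553502) went from at most 29.7 RPM to a median of 1338, and was 10.9 RPM in evolved 12 and 144 to 3549 in the other 11. Its log2 difference of 5.18 (standard error 0.57, adjusted p = 5.59e-08) was the largest of all called genes. PHO11 (YAR071W) followed with 3.62, but how reads shared by PHO11 and PHO12 were counted is not given in the sources used here, so the split between this pair is uncertain.

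SPL2, an inhibitor of the low-affinity phosphate transporters, rose by 3.72 on the log2 scale from a wild type median at the floor to 312 RPM. PHM6 (YDR281C), whose function is unknown, had at most 32.8 RPM in wild type columns and a median of 451 RPM in evolved columns, with evolved 8 highest at 2651 and evolved 12 lowest at 22.0. The log2 difference was 4.80 (standard error 0.50, adjusted p = 1.55e-08). PHM8, a nucleotide and lysophosphatidic acid phosphatase, rose by 2.93. Subunits of the vacuolar polyphosphate polymerase rose less: VTC3 by 2.22, VTC1 by 1.81 and VTC4 by 1.27, while VTC2 differed by 0.37 and was not called (adjusted p = 0.420). VTC1 was well above the floor in every column, at 112 to 280 RPM in wild type and 224 to 2292 in evolved, and 11 evolved columns exceeded the highest wild type column. DDP1, a polyphosphate and inositol pyrophosphate phosphatase, rose by 1.65.

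Of the regulators only PHO81 was called. PHO81, the inhibitor of the kinase, rose by 1.43 (adjusted p = 0.0150), from a wild type median of 47.6 RPM to 128. PHO4 differed by -0.16, PHO2 by 0.24, PHO80 by 0.01 and PHO85 by 0.10, and none was called. The low-affinity transporters PHO87, PHO90 and PHO91 differed by 0.27, -0.37 and 0.06. Also not called were the vacuolar phosphatase PHO8 with 1.01 (adjusted p = 0.172), PHO86, needed for export of Pho84 from the endoplasmic reticulum, with 0.88 (adjusted p = 0.112), the glycerophosphoinositol transporter GIT1 with 0.50 and the glycerol phosphatase GPP2 with 0.30. With a replicate block and the numbers exchanged, PHO86 passed (adjusted p = 0.0478). KCS1, which makes inositol pyrophosphates, and GDE1, a glycerophosphocholine phosphodiesterase, were chosen after their values were seen and rose by 1.37 and 1.74.

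**Figure D1:**
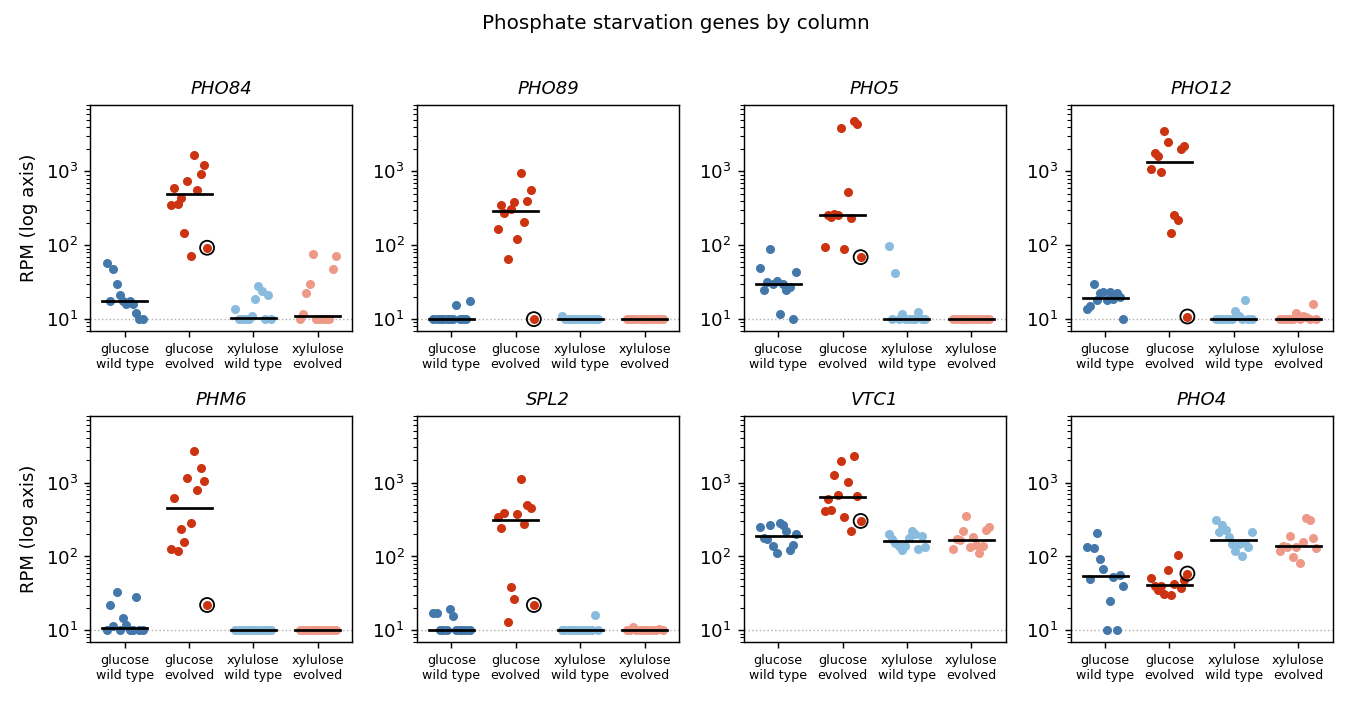
RPM on a log axis of 8 phosphate starvation genes in each of the 48 columns, grouped by sugar and state. Points are columns, bars are group medians, the dotted line is the floor of 10 RPM and the circled point is evolved 12. For PHO84 all evolved columns on glucose, with a median of 492 RPM, lie above every wild type column on glucose, while for PHO4 the groups overlap.

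Genes of mating type a formed the other large group. Of 8 listed, 7 were tested and 5 were called higher, against 2.35% of all genes. The list's median log2 difference was 2.20. Several members reached the filter through the evolved columns, so this count and median only describe those that passed. The summed level of the 8 genes, with blanks as 0, was 11.7 to 271 RPM in wild type columns (median 56.2). In evolved columns it was 41.1 to 4913 (median 1476). AFB1, a gene of alpha cells, was among the 8 listed and the 7 tested and is part of these figures. The lowest evolved column was again evolved 12, the highest evolved 8. All 11 evolved columns other than 12 were above the highest wild type column.

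MFA1 (YDR461W, chromosome IV, 1385176 to 1385286), a gene for the mating pheromone a-factor, was blank in 8 wild type columns and had at most 31.7 RPM in the rest. In evolved columns its median was 460 RPM and its highest value 1612, and it was blank in evolved 12 alone. Its log2 difference was 4.79 (standard error 0.48, adjusted p = 7.04e-09). MFA2 (YNL145W), the other a-factor gene, ranged from a blank to 47.7 RPM in wild type and from 41.1 to 2280 in evolved columns, a log2 difference of 4.44 (adjusted p = 2.90e-09). The lowest value was that of evolved 12, and the other 11 were above every wild type column.

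STE2 (YFL026W), the receptor for alpha-factor, had a value in 3 wild type columns, with at most 19.7 RPM, and a median of 221 RPM in evolved columns, with 498 in evolved 8 and a blank in evolved 12. It rose by 3.97 (standard error 0.39, adjusted p = 6.17e-09). AGA2, the binding subunit of a-agglutinin, was blank in all 12 wild type columns, so its evolved median of 46.5 RPM is at least 4.65-fold higher than the floor. BAR1, the protease that degrades alpha-factor, rose by 2.00 (adjusted p = 3.57e-04). STE6, the a-factor exporter, differed by 1.02 and was not called (adjusted p = 0.0789), but passed without wild type 5 (adjusted p = 0.0228), without evolved 12 (adjusted p = 0.0309) and without evolved 9 (adjusted p = 0.0400). ASG7 was blank in every wild type column and had a value in 8 evolved columns, too low to be tested. AFB1 had been placed in the a list, but it makes the barrier to a-factor of alpha cells. AFB1 was highest in wild type 9 at 231 RPM, most of that column's a-list sum of 271 RPM, and differed by -0.03.

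None of the 4 alpha genes was called, and their median log2 difference was -0.16, with -0.44 to 0.51 when a column was left out. MF(ALPHA)1, the main alpha-factor gene, had 816 RPM in wild type 9 and 351 RPM in evolved 5, and at most 23.9 RPM in the other 22 columns. The receptor for a-factor, STE3, peaked in the same columns at 218 and 123 RPM. Wild type 9 and evolved 5 are joined by the exchange of numbers, and MF(ALPHA)1 had 574 and 296 RPM in them on xylulose. MF(ALPHA)2 and the alpha-agglutinin SAG1 differed by -0.34 and -0.31. Evolved 5 on glucose held transcripts of both mating types, with 382 RPM of MFA1, which was blank in the same population on xylulose.

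Of 28 haploid-specific and pheromone pathway genes, 19 reached the filter. Of these, 9 were called higher, against 2.35% of all genes, and none lower. Wild type columns held values for 2 to 17 of the 28 and evolved columns for 4 to 24, so members could pass the filter through the group where they were high, and the count only describes those that passed. The subunits of the G protein behind the pheromone receptors were among the called members: STE18 (gamma) rose by 2.46 (adjusted p = 3.19e-05), STE4 (beta) by 1.59 and GPA1 (alpha) by 1.41. GPA1 kept its call in 11 of 36 alternatives. STE18 was blank in 9 wild type columns and reached 77.6 RPM in wild type 9, and its evolved median was 77.5 RPM with a blank in evolved 12. The other called members were FAR1, which arrests the cell cycle, the scaffold STE5, the meiosis repressor RME1, the agglutinin anchor AGA1, and PRM1 and PRM5, which pheromone induces, with differences of 0.94 to 1.36. These 6 were chosen after their values were seen. PRM1 was blank in all 12 wild type columns, and its evolved median was 17.9 RPM, near the floor. Meiosis and sporulation genes were mostly below the floor. Of 24 listed, 5 could be tested and SPS19, a peroxisomal reductase, rose by 1.13.

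HO, the endonuclease that switches mating type and is expressed in haploid mother cells, had a value in 4 wild type and 11 evolved columns. Wild type 12 held 209 RPM and evolved 8 held 193 RPM, again a pair under the exchange. The other evolved columns ranged from a blank in evolved 12 to 89.2 RPM. The log2 difference of 1.51 was not called (standard error 0.48, adjusted p = 0.0897), and the groups overlapped. With a replicate block and the numbers exchanged it passed (adjusted p = 0.0104), and so it did without wild type 12 (adjusted p = 0.0103), without wild type 9 (adjusted p = 0.0452) and without evolved 12 (adjusted p = 0.0347).

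**Figure D2:**
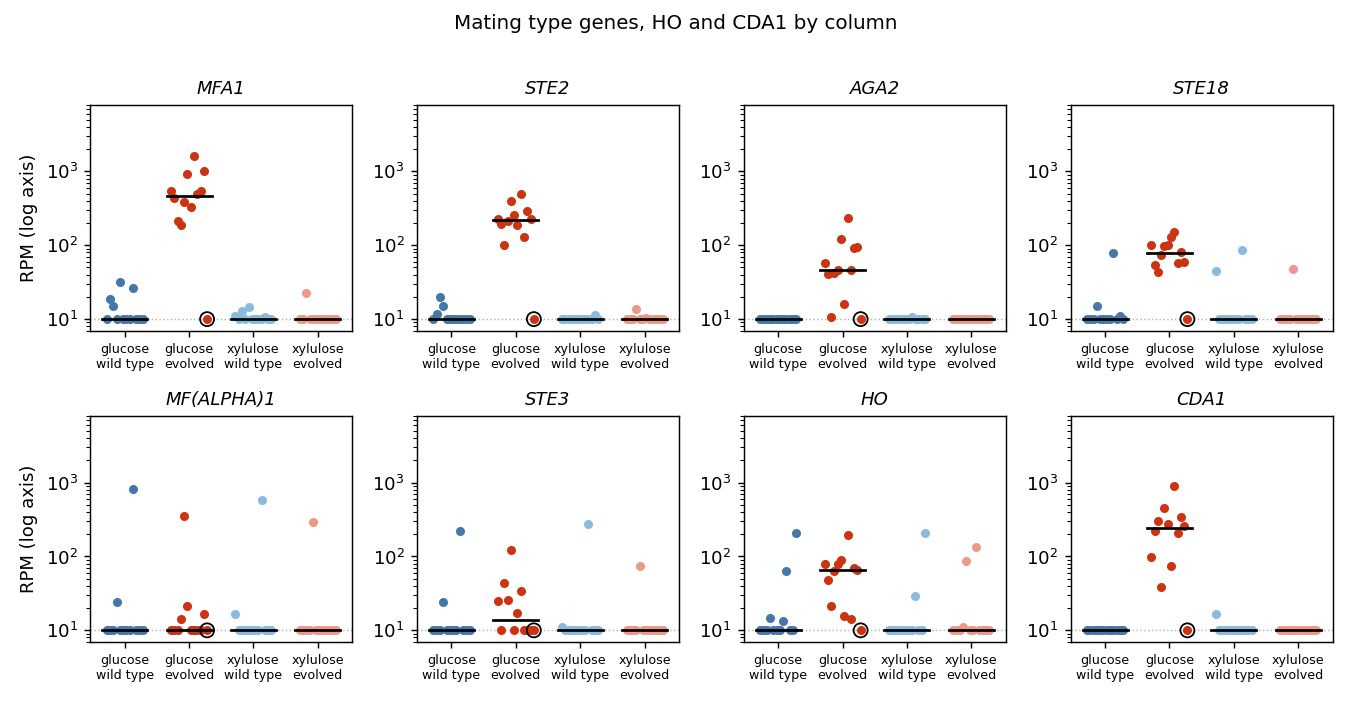
RPM on a log axis of mating type a genes (MFA1, STE2, AGA2), the haploid-specific STE18, alpha genes (MF(ALPHA)1, STE3), HO and CDA1 in each of the 48 columns. Symbols are as in the plot of phosphate starvation genes. The a genes are high in evolved columns on glucose, with a median of 460 RPM for MFA1, and at or near the floor in evolved 12 and on xylulose, while the alpha genes are high in single columns of each group.

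The a genes and the phosphate genes were high in the same 11 evolved columns, without the same order among them. Evolved 12 had the lowest sum for both lists. Evolved 10 and 6 had the highest phosphate sums, 17280 and 16190 RPM, with 2081 and 2391 RPM of the a list, whereas evolved 8 had the highest sum of a genes, 4913 RPM, with 13174 RPM of phosphate genes. The populations with these sums on glucose had a-list sums of 12.1 to 57.3 RPM on xylulose, where the wild type had 13.9 to 129.7 RPM. The part of cells of mating type a in the phosphate result was not tested.

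**Figure D3:**
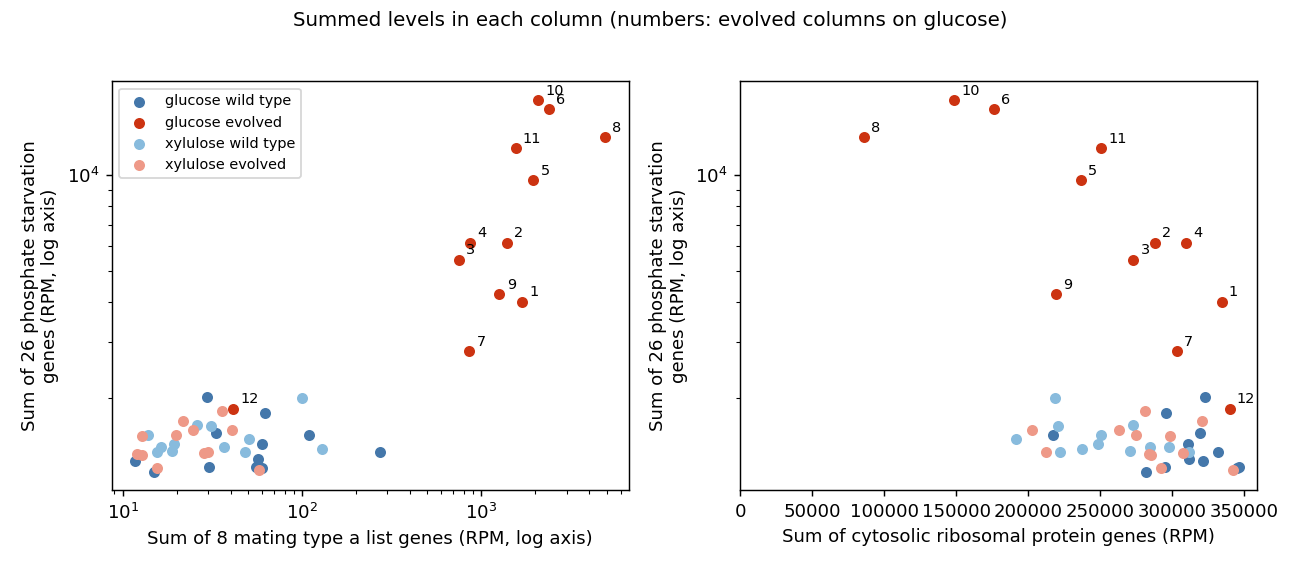
Summed RPM of the 26 phosphate starvation genes (log axis) in each of the 48 columns, against the summed RPM of the 8 genes of the a list (left, log axis) and of the 138 cytosolic ribosomal protein genes (right, linear axis). Colours give sugar and state, and numbers mark the evolved columns on glucose. All of these but evolved 12 lie at high sums of both lists on the left, and evolved 8, 10 and 6 lie at the lowest ribosomal protein sums on the right.

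Ribosomal protein lists were among those with the lowest medians. Of the 138 genes of the cytosolic ribosome, 137 had a negative log2 difference, with a median of -0.38 for the 57 genes of the small subunit and -0.40 for the 81 of the large subunit. RPS20 was the only member called, at -0.68 (standard error 0.19, adjusted p = 0.0455), from 313 to 949 RPM in wild type to 125 to 490 RPM in evolved columns. At an unadjusted p under 0.05, 71 of the 138 were lower, against 133 of all 5146 genes (2.58%). Summed over the large subunit, levels were 130300 to 210600 RPM in wild type and 52550 to 205800 in evolved columns. Evolved 8, 10 and 6 were below the wild type range with 52547, 91286 and 109480 RPM, and the other 9 were inside it. Without evolved 8 the medians were -0.25 and -0.26, and without evolved 8 and 12 both were -0.30. RPS20 lost its call without evolved 8 and 12 (adjusted p = 0.0697), without wild type 9 (-0.61, adjusted p = 0.0769) and in most other alternatives. Genes of ribosome biogenesis and of the mitochondrial ribosome had no calls among 130 and 73 tested, with medians of 0.03 and 0.07.

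The 4 other falls were single genes. NUF2 (YOL069W, chromosome XV, 198942 to 200297), a kinetochore subunit, fell by 1.62 on the log2 scale (standard error 0.39, adjusted p = 0.0136), from 90.1 to 1502 RPM in wild type columns (median 280) to 34.5 to 297 in evolved ones (median 108). The groups overlapped, with 6 of the 12 evolved columns below the lowest wild type column and 1 above the wild type median, and wild type 1, 4, 5 and 7 were highest with 948, 1502, 706 and 1172 RPM. The call was kept in 38 of 38 alternatives. EDC1, an activator of mRNA decapping, fell by 1.12, and MOT2, a subunit of the Ccr4-Not complex, fell by 1.10. MIS1, a mitochondrial one-carbon enzyme, fell by 0.74 (standard error 0.17, adjusted p = 0.0118), from a median of 306 RPM to 190, and no evolved column reached above the highest wild type column.

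Outside these groups, the largest rise was that of CDA1 (YLR307W, chromosome XII, 745620 to 746525), a chitin deacetylase known from the wall of ascospores. It was blank in all 12 wild type columns and in evolved 12, and had 38.2 to 891 RPM in the other 11 evolved columns, with evolved 8 highest. Its evolved median of 239 RPM was at least 23.9-fold above the floor (log2 difference 4.03, adjusted p = 5.59e-08). SRD1, whose product has been linked to rRNA processing, rose by 2.51 (adjusted p = 7.98e-07), from a wild type median at the floor to 64.8 RPM, and 11 evolved columns were above the wild type range. CIS1 rose by 2.49.

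Of the genes for amino acid permeases and nitrogen catabolism, 37 were tested. Of these, 6 were called higher, against 2.35% of all genes, and none lower. The list median was 0.17, which is that of all genes. Members could pass the filter through the group where they were high, so the count and median only describe those that passed. GAP1 (YKR039W), the general amino acid permease, rose by 2.85 (standard error 0.50, adjusted p = 3.60e-04). It had a value in 5 wild type columns, with at most 31.6 RPM, and ranged in evolved columns from 10.3 RPM, reached in evolved 1 and 12, to 555 RPM in evolved 8, with 9 evolved columns above the wild type range. The allantoin pathway genes DAL3 and DAL2 rose by 1.53 and 1.35, the GATA factors DAL80 and GZF3, which repress nitrogen catabolite genes, by 1.41 and 1.28, and the proline oxidase PUT1 by 1.05, of which DAL2, GZF3 and PUT1 were chosen after their values were seen. These 5 were near the floor, with evolved medians of 28.2 to 58.1 RPM. DAL80 was blank in all 12 wild type columns, and its evolved median of 30.4 RPM is at least 3.04-fold higher than the floor. The 90 tested genes of amino acid biosynthesis had a median of 0.03. SNZ2 and SNZ3, near-identical genes next to thiamine genes, rose by 1.62 and 1.36. They were the 2 of 12 thiamine genes called, against 2.35% of all genes. How reads shared by this pair were counted is not given in the sources used here, and both had an evolved median of 37.4 RPM, so the 2 calls may be a single signal. SNZ1, a vitamin B6 synthesis gene chosen after its values were seen, rose by 2.29 (adjusted p = 5.21e-04).

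Chaperones and defence genes were raised in part. Of 30 genes of the heat shock list, 5 were called higher, against 2.35% of all genes, and none lower. The difference was positive for 26 of the 30, as it was for 3505 of all 5146 genes, and the list's median was 0.52. SSA1 (YAL005C, chromosome I, 139503 to 141431), an Hsp70 chaperone, had 591 to 2009 RPM in wild type and 661 to 5461 RPM in evolved columns, with medians of 872 and 2280. Evolved 6 was highest and evolved 12 lowest. It rose by 1.21 (standard error 0.25, adjusted p = 0.00342). The stress-induced Hsp70 SSA4 rose by 1.27, a call kept in 10 of 37 alternatives, the co-chaperone STI1 by 1.19, and, chosen after their values were seen, the chaperones HSP82 by 0.80 and HSP10 by 0.60. AHP1 (YLR109W), a thiol peroxidase, was at 508 to 2788 RPM in wild type and 1319 to 9083 in evolved columns and rose by 1.40 (adjusted p = 0.00233), and the thioredoxin TRX2 rose by 0.90. These were 2 of 28 genes of oxidative defence. In the general stress list 3 of 46 were called, GRE1 with 2.46, SIP18 with 2.32 and GRE2 with 1.82. Its median was 0.27, but 0.15 without evolved 9 and 0.16 without wild type 9, which is below the 0.17 of all genes, and up to 0.38 without another column. The shares called in the defence and general stress lists stand against the same 2.35%. The open reading frame YMR175W-A just beyond SIP18 held similar values, and whether they share reads was not tested. Of the cell separation genes AMN1 rose by 1.61, and of the cell cycle genes SWI5, a factor for genes of early G1, rose by 1.07.

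Central carbon metabolism showed no called gene. None of the 9 lower and 10 upper glycolysis genes, 11 fermentation genes, 10 hexose transporters, 20 glucose-repressed genes, 21 genes of the TCA cycle, 35 of the respiratory chain or 14 of pentose use passed, with list medians of -0.11 to 0.35. At an unadjusted p under 0.05 these lists held 0 of 9, 1 of 10, 2 of 11, 3 of 10, 1 of 20, 2 of 21, 2 of 35 and 4 of 14 genes. The share was 16.8% over all genes tested, and the fermentation, hexose transporter and pentose lists were above it. The largest difference in the pentose list was 1.88, and 3 of its 14 genes passed the test between the sugars given below. TDH1 and HXK1 differed by -0.15 and -0.30, the pyruvate decarboxylase PDC1 by 0.34 and the xylulokinase XKS1 by 0.56 (adjusted p = 0.416), and the groups overlapped for all 4. The glucose-induced transporter HXT1 was uneven. It had a value in 3 wild type columns, 1037 RPM in wild type 10 among them, and in all 12 evolved columns, at 23.5 to 241 RPM. Its difference of 1.47 was not called (adjusted p = 0.202), but was 1.97 without wild type 10 (adjusted p = 0.0193). Histone, proteasome, ergosterol, iron, zinc and trehalose lists had no calls, with medians of -0.10 to 0.25, nor did the hypoxic, galactose and maltose and auxotrophy lists, with -0.11, -0.43 and -0.56. None of the 24 PAU genes reached the filter. With median-of-ratios scaling the list medians of lower and upper glycolysis, the respiratory chain, amino acid biosynthesis, ribosome biogenesis and histones turned from above to below 0, to -0.02, -0.03, -0.03, -0.03, -0.03 and -0.05.

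**Figure D4:**
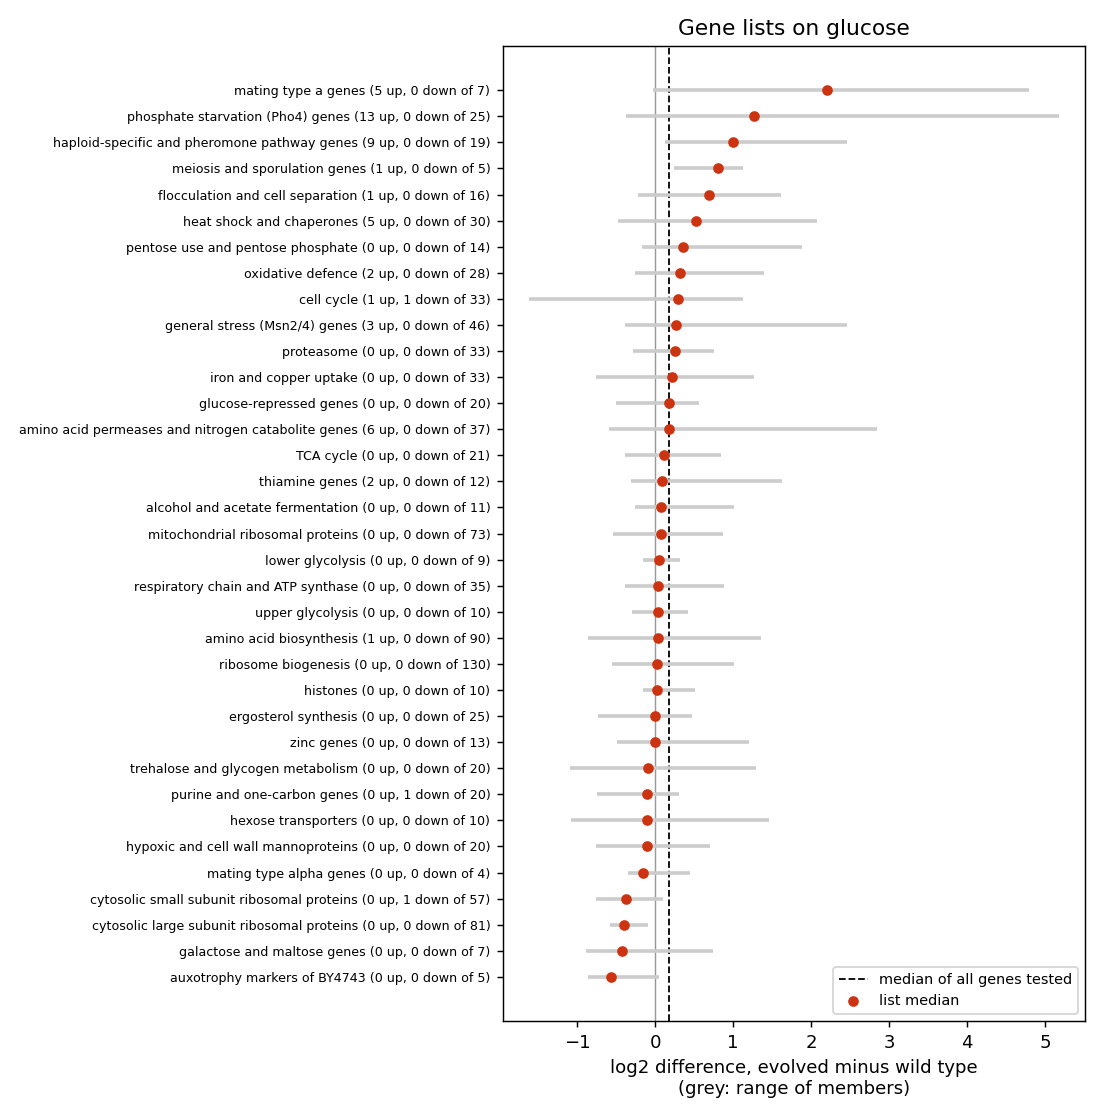
Median log2 difference, evolved minus wild type on glucose, of the 35 gene lists with a tested member (red points), with the range of their members (grey bars) and the median of all genes tested (dashed line, 0.17). The counts beside each name are members called higher, members called lower and members tested. The a, phosphate and haploid-specific lists have the highest medians, 2.20, 1.27 and 0.99, and the cytosolic ribosomal protein lists are among the lowest.

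The glucose minus xylulose change of each population was used to test whether a gene's difference on glucose was unlike that on xylulose. Of 5129 genes, 278 had a larger evolved minus wild type difference on glucose (5.42%) and 7 a larger one on xylulose (0.136%), together 285 (5.56%). Larger here means more positive, whichever sugar the change lies on. Of the 117 genes called higher on glucose that entered this test, 92 were among the 278. The median difference of all 121 was 1.40 on glucose and -0.08 on xylulose. These genes had been called on the same glucose columns, which favours both a large contrast and a smaller difference on xylulose. The overlap is therefore not separate support for a difference between the sugars. For PHO12, STE2 and CDA1 the differences on xylulose were -0.02, 0.03 and -0.06, with values in 7, 3 and 1 of the 24 columns on that sugar. PHO84 differed by 0.48 on xylulose, where evolved 5, 12 and 11 had 77.1, 72.4 and 47.9 RPM. Of the 5 falls, that of MIS1 differed between the sugars, by -0.95 (adjusted p = 0.0260), whereas NUF2 was also lower on xylulose, by -1.01, a value that was not tested by itself.

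The amino acid genes show a difference of another kind. In the test between the sugars 21 of 90 amino acid biosynthesis genes passed. In all of these the evolved minus wild type difference was more positive on glucose than on xylulose, against 5.42% of all genes. On xylulose the 91 listed genes summed to 19740 to 55650 RPM in wild type columns (median 39520). In evolved columns they summed to 18570 to 32720 RPM (median 21490). On glucose the sums were 15080 to 27550 (median 19400) and 15700 to 22990 RPM (median 19320). The medians thus differed on xylulose and hardly on glucose. For SNZ1, which is not in that list, the differences were 2.29 on glucose and -2.93 on xylulose. SNZ1 had 25.7 to 1809 RPM in wild type and 18.6 to 55.2 RPM in evolved columns on xylulose, so its large contrast of 5.22 came from both sugars.

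**Figure D5:**
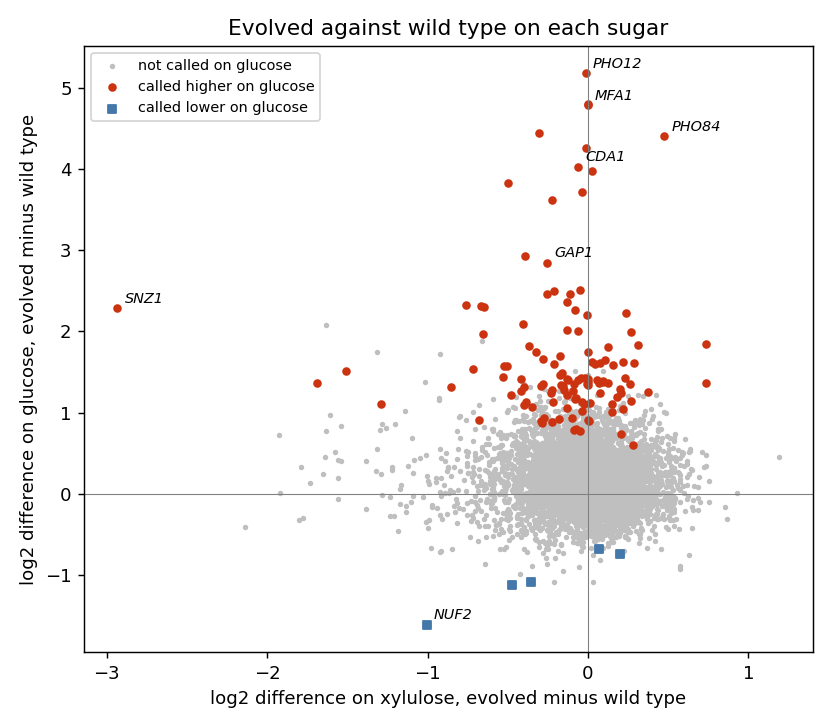
Log2 difference, evolved minus wild type, on glucose against that on xylulose for the 5146 genes tested on glucose. Red points are the 121 genes called higher on glucose, blue squares the 5 called lower. Most red points lie near 0 on the xylulose axis, and SNZ1 lies farthest below 0 on it.

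In some columns the genes of a whole chromosome lay apart from the rest. Relative to the mean of the wild type columns, and after subtraction of each column's median over all genes, the genes of chromosome I had a median log2 difference of -1.27 in evolved 12 and -0.63 in evolved 7 over 30 genes detected in every glucose column, and no wild type column was below -0.29. The same populations had -1.002 and -0.87 on xylulose, over genes with a value in all 48 columns. For chromosome XV the medians were 0.33 in evolved 1, 0.36 in evolved 3, 0.23 in evolved 8 and 0.29 in evolved 11, and 0.44, 0.39, 0.47 and 0.43 in the same populations on xylulose. Chromosome XII was at 0.37 in evolved 3 and 0.23 in evolved 1, and at 0.28 and 0.39 on xylulose. Chromosome VII was at 0.32 in evolved 11 and 0.26 in evolved 4, and at 0.37 and 0.39 on xylulose. The highest wild type column on glucose was at 0.11 for chromosome XV, 0.07 for XII and 0.10 for VII. Shifts of similar size occurred in wild type on other chromosomes, as in wild type 5 with 0.34 on IX and -0.33 on VIII. In wild type 9 the genes of chromosome VIII were at 0.86, against -0.05 in evolved 5, its partner under the exchange. PHO11 and SSA1 lie on chromosome I and RPS20, which lost its call without wild type 9, on chromosome VIII, and the part of these shifts in single genes was not tested.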

How the data were processed

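Poly(A) RNA was sequenced as 50-base single reads with molecular identifiers. Per the labels and the study's methods, the authors mapped reads with Bowtie to R64, removed rRNA, scaled each sample to reads per 1000000 (RPM), averaged 2 repetitions and deposited log2 RPM for 6701 genes, with values below 10 RPM blank. How the repetitions were averaged is not given in the sources used here, and 11 glucose columns held values on 1 read step, unlike a mean of separately scaled libraries. Blanks (44666 glucose cells) were set to 10 RPM. Differences were fitted with limma 3.58.1 in R 4.3.3 (lmFit and eBayes with trend) on log2 RPM without a pseudocount, unpaired, 12 against 12 columns, with Benjamini-Hochberg adjustment over all 5146 genes whose mean over the 24 columns, blanks taken as 0, reached 10 RPM. As a pairing check, same-numbered columns deviated together at r over 0.1 in 2 of 12 pairs, exchanged ones in 6 of 12. The gene lists, the members and the named genes were chosen with earlier results of these data known. Named genes were the 15 largest called rises and falls with a value in at least 6 of the 24 columns, up to 3 called members of each list or, with none called, its first 2, all phosphate, a and alpha genes, HO and the markers of BY4743, and exceptions are marked. Scripts were tested on simulated data. Sequences and coordinates are from the R64 RefSeq genome. Alternatives changed the floor, pseudocount, filter, scaling, pairing, weights and columns used. Results for a withheld item are not reported here.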

Additional observations from a re-analysis of the deposited data

Results flagged for a closer look

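For 35 named genes called on glucose, the evolved minus wild type difference on glucose differed from that on xylulose by the limma test on the change of each population between the sugars, at adjusted p under 0.05. The values that follow are the glucose difference minus the xylulose difference on the log2 scale. Among phosphate starvation genes they were PHO12 5.20, PHM6 4.80, PHO5 4.33, PHO89 4.27, PHO84 3.93, PHO11 3.85, SPL2 3.76, PHM8 3.32, VTC3 1.98, VTC1 1.69, DDP1 1.54, VTC4 1.36 and PHO81 1.20. Among mating and sporulation genes and CDA1 they were MFA1 4.79, MFA2 4.75, STE2 3.95, AGA2 2.21, BAR1 2.06, STE18 2.71, GPA1 1.54, STE4 1.43, SPS19 1.35 and CDA1 4.09. Among genes of nitrogen use and the single genes CIS1 and SRD1 they were GAP1 3.11, CIS1 2.71, SRD1 2.56 and DAL3 2.25. Among stress and cell cycle genes they were SIP18 2.98, GRE1 2.57, GRE2 2.19, SSA4 1.68, AHP1 1.46, TRX2 1.19 and SWI5 1.42. The only negative value was MIS1 -0.95. Many of these genes were blank in most columns on xylulose, where a difference below the floor was not detectable. All 35 had also been chosen by their calls on the same glucose columns, which favours a large contrast.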

How the results depend on the processing

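The 126 calls on glucose fell to 57 with a mean of at least 50 RPM and to 19 among genes with a value in every column, where fewer genes were tested. The 285 calls of the test between the sugars fell to 163 with blanks at 1 RPM and to 104 with a value in every column. Leaving out 1 column at a time gave 90 to 178 calls on glucose, fewest without evolved 6 or 8 and most without evolved 12, and 190 to 330 between the sugars. With the replicate block as labelled the counts were 120 and 263, and with the replicate block and exchanged numbers 182 and 310. As labelled, RPS20, GPA1, SSA4 and SWI5 lost their calls. The median of the phosphate list was 0.37 among genes with a value in every column. That of the a list was 3.12 with blanks at 5 RPM and 4.72 with blanks at 1 RPM. It was 1.07 with 30 added and 4.44 with a mean of at least 50 RPM. With a column left out it was 1.99 to 3.08. It was highest without wild type 9, where AFB1 no longer passed the filter and 6 members were tested. The haploid-specific list had 1.69 with blanks at 5 RPM and 2.89 with blanks at 1 RPM, the meiosis list 1.91 and the cell cycle list 0.75 with blanks at 1 RPM, and the galactose and maltose list 0.74 with the 1 gene that had a value in every column. Chosen after seeing the data, fits without evolved 8 and 12 and without evolved 5 and wild type 9 gave 112 and 107 calls. Of 45 named genes called on glucose, 33 kept the call in every alternative. EDC1, MOT2, RPS20, STE4, GPA1, SPS19, SSA4, SIP18, AMN1, SWI5, VTC4 and PHO81 lost it in some, and no direction reversed. Beyond these fewer genes or changed floors, the cause was not tested. Differences below 10 RPM were not detectable.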
